A study of Mus musculus with 2 samples.

Results

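*Kcnq1ot1* high cancer cells are the cancer cells of Lewis lung carcinoma (LLC) tumors with the largest summed level of 5 transcripts, *Kcnq1ot1*, *Ank3*, *Scn9a*, *D030024E09Rik* and *C230038L03Rik*. They were chosen by that sum, and number 1421 of the 14210 cancer cells among 40638 barcodes. Of the high cells, 754 came from the control library and 667 from the library with the deletion, which leaves 5352 and 7437 other cancer cells for comparison. A barcode was taken as a cancer cell with at least 5000 UMIs (transcript molecules, each counted once), under 10% mitochondrial UMIs, at least 1000 CPM (counts scaled to the total UMIs of a cell or group) summed over *Rhox5*, *Krt8*, *Krt18* and *Hmga2*, and under 300 CPM summed over the myeloid genes *Tyrobp*, *Fcer1g* and *Ctss*. The 10% of both libraries pooled with the largest 5-gene sum, here called the score, were the high cells.

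The tumors arose from LLC, a mouse lung carcinoma line, injected under the skin of C57BL/6 mice at 8 weeks of age and dissected after 2 weeks. Control hosts, sGC Ctr, carried *Gucy1b1* flox/flox, and sGC ∆PC hosts carried Cspg4-CreER T2 beside *Gucy1b1* flox/flox; the genotype label spells the gene Gucyc1b1. At the age of 4 weeks, mice of both groups were given tamoxifen in 5 doses. Cells of 3 tumors were pooled into 1 library per condition, so a condition cannot be told apart from its library and no test was run. The Cre, driven by *Cspg4*, deletes in pericytes the gene of the β1 subunit of soluble guanylyl cyclase (sGC), the receptor for nitric oxide. The injected cancer cells carry neither allele. *Gucy1b1* had 0 UMIs in the high cells of both libraries, which allows up to 0.0714 CPM in sGC Ctr and 0.0806 CPM in sGC ∆PC (3 counts per library), and in these cells the gene checks no label.

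*Kcnq1ot1* is a long, unspliced RNA transcribed from the paternal chromosome, antisense to *Kcnq1*. It stays in the nucleus and takes part in silencing neighbouring imprinted genes such as *Cdkn1c* and *Phlda2* on the same chromosome. *Ank3* encodes ankyrin-G, which ties membrane proteins to the spectrin skeleton, and *Scn9a* encodes the sodium channel Nav1.7. *D030024E09Rik* and *C230038L03Rik* are noncoding transcripts without a role stated here.

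The 5 genes lie on 4 chromosomes (GRCm38, positions from GENCODE). *Kcnq1ot1* (ENSMUSG00000101609, antisense) is a single exon of 93.1 kb at chr7:143203458-143296549 on the minus strand, inside *Kcnq1*. *C230038L03Rik* (ENSMUSG00000085560, processed transcript) lies on the same chromosome at chr7:96906826-96951886, minus strand, and overlaps *Tenm4* and *Nars2* on the other strand. *D030024E09Rik* (ENSMUSG00000116031, lincRNA) spans 239.8 kb at chr15:61534676-61774451, minus strand, 210.9 kb from *Myc*. *Scn9a* (ENSMUSG00000075316) lies at chr2:66480080-66634962, minus strand, and *Ank3* (ENSMUSG00000069601) at chr10:69398773-70027438, plus strand. Their spans, from 45.1 kb for *C230038L03Rik* to 628.7 kb for *Ank3*, share that all are long. The paper names the standard Cell Ranger pipeline and does not describe the handling of strand. How reads were divided between *Kcnq1ot1* and *Kcnq1*, or between *C230038L03Rik* and its partners on the other strand, was not tested.

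The libraries differed in depth, which bears on every value of sGC ∆PC. The median depth of the high cells was 51998 UMIs for sGC Ctr and 56944 for sGC ∆PC, while that of the other cancer cells was 52920 and 18795. In sGC ∆PC the high cells were thus deeper than the cells they were compared with. In sGC Ctr the medians were close, and the upper quartiles were 65836 and 70576 UMIs. The high cells held 42005640 and 37243397 UMIs in all, and the other cancer cells 316880637 and 240668934. The libraries shared 131 barcodes, which held 8 high cells of sGC Ctr and 4 of sGC ∆PC; without them the share of high cells was 12.4% and 8.23%. No doublet caller was run, and the part of doublets was not tested. The deepest 5% of each library need not hold them. Without these deepest cells, the median log2 ratio of the chromatin regulators described below was 0.53 and 0.63. Other lists moved more. Genes of G2 and M phase had -0.41 and -0.51, against -0.34 and -0.17 with these cells. Endothelial markers had -0.01 and -1.455, against -0.01 and -1.20.

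The score ran without a gap from the other cancer cells into the high cells. Its median was 314 CPM in sGC Ctr and 218 CPM in sGC ∆PC, with 99 (1.62%) and 936 (11.6%) cancer cells at 0. The threshold lay at 647 CPM. The 100 cells just inside it had scores of 648 to 662 CPM (median 654), and the 100 just outside had 632 to 647 CPM (median 641). Within 10% of the threshold lay 332 high cells and 471 other cells, so the high cells are a range of the score, and whether they are a type of their own was not tested. At 5000 UMIs a cell needed 4 UMIs of the 5 genes to pass, and at 50000 UMIs it needed 33.

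**Figure D1:**
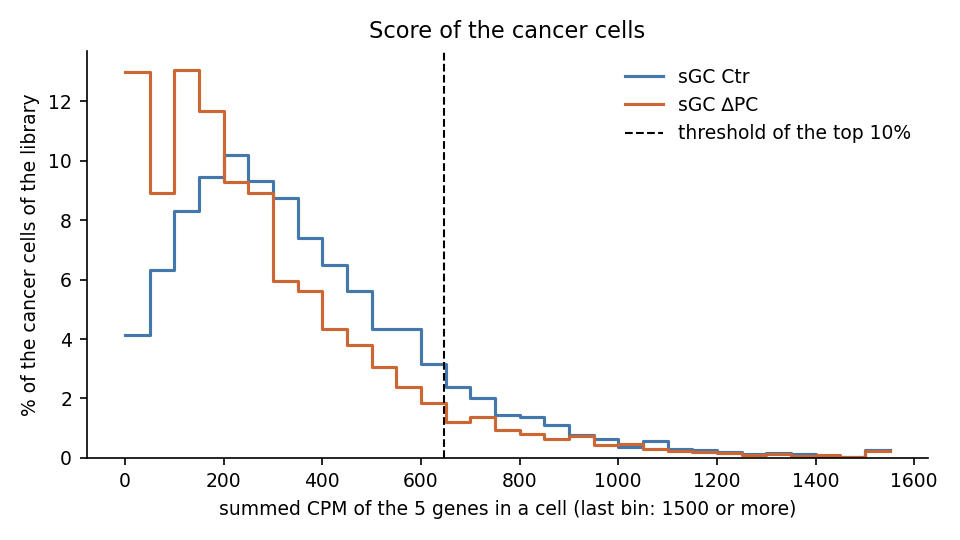
Percentage of the cancer cells of each library (vertical axis) by the summed CPM of the 5 genes in a cell (horizontal axis, bins of 50 CPM, the last bin holding all cells at 1500 CPM or more). Both curves run through the dashed threshold at 647 CPM without a gap, and sGC ∆PC has more cells in the first bin, 12.98% against 4.14%.

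*Kcnq1ot1* supplied most of the score. Summed over the high cells of sGC Ctr it reached 23063 UMIs (549 CPM), and over those of sGC ∆PC 21528 (578 CPM), against 154 and 151 CPM in the other cancer cells. It gave 64.1% and 65.2% of the UMIs of the 5 genes, and it was the most abundant of them in 95.6% and 94.9% of the high cells. *Ank3* led in 4.11% and 4.95%. The levels that follow describe the choice of the cells and support nothing. *Ank3* had 189 and 193 CPM against 88.8 and 84.5, *Scn9a* 45.2 and 36.2 against 23.3 and 19.6, *D030024E09Rik* 41.5 and 41.9 against 13.6 and 12.9, and *C230038L03Rik* 31.4 and 36.5 against 14.5 and 16.3.

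**Figure D2:**
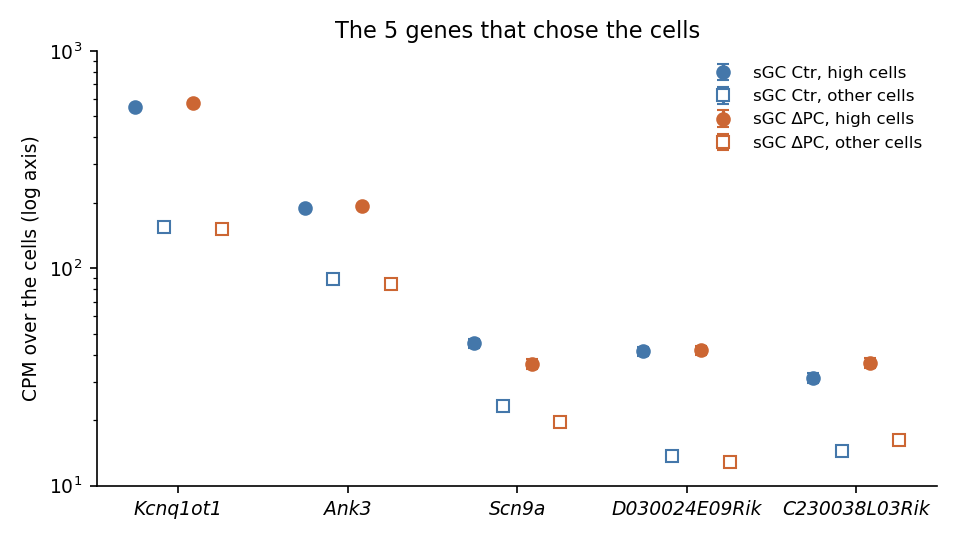
Level of the 5 genes in CPM over all cells of a group (logarithmic vertical axis) in high cells (filled circles) and other cancer cells (open squares) of both libraries; bars are exact Poisson intervals at 95% and mostly lie within the symbols. Every gene is higher in the high cells, by choice, and *Kcnq1ot1* is the most abundant, at 549 and 578 CPM.

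When each gene was measured in cells chosen on the other 4 genes, it was higher in the chosen cells in both libraries. The log2 ratio of high to other cells was 1.09 (interval 1.07 to 1.12) in sGC Ctr and 1.19 (1.16 to 1.22) in sGC ∆PC for *Kcnq1ot1*. It was largest for *D030024E09Rik*, at 1.39 (1.31 to 1.47) and 1.51 (1.42 to 1.60), and smallest for *Scn9a*, at 0.69 (0.61 to 0.76) and 0.67 (0.58 to 0.76). *C230038L03Rik* had 0.94 and 1.009, and *Ank3* 0.83 and 0.96. These intervals, like all others here, are exact 95% intervals of counting error alone. With cells chosen on a random part of each cell's UMIs and levels read from the remainder, the ratio of *Kcnq1ot1* was 1.65 and 1.78, against 1.83 and 1.94 with all UMIs.

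From cell to cell the 5 genes were weakly related. All 5 were found in 49.3% and 47.8% of the high cells of sGC Ctr and sGC ∆PC, and at least 3 of them in 98.01% and 93.3%. After every cell was thinned at random to 5000 UMIs, *Kcnq1ot1* was found in 90.1% and 92.95% of the high cells and in 47.4% and 38.2% of the others, and *Ank3* in 61.1% and 59.4% against 34.0% and 28.6%. *D030024E09Rik*, *C230038L03Rik* and *Scn9a* were each found in under 20% of the thinned high cells. Pearson correlations between pairs of the genes over thinned cells (6106 and 8104 cells, which share a library and a fixed depth) ran from 0.0165 to 0.156 in sGC Ctr and from 0.0181 to 0.162 in sGC ∆PC, the highest in both being *Kcnq1ot1* with *Ank3*. At such sparse counts these values are a description only.

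In cells of other types the 5 genes are given beside the other cancer cells, since the high cells were chosen for their level. No background of free RNA was measured, so a UMI there need not come from the cell itself. In endothelial cells *D030024E09Rik* had 0 UMIs in both libraries. Myeloid cells (1180 and 805 cells low in cancer genes) held *Kcnq1ot1* at 83.0 and 91.8 CPM, with a UMI in 26.8% and 27.5% of cells thinned to 5000 UMIs. Fibroblasts (66 and 34 cells) held it at 121 and 137 CPM, and endothelial cells (30 and 24 cells) at 44.8 and 78.2 CPM. *Ank3* had 7.86 and 7.51 CPM in myeloid cells and 31.4 and 44.8 CPM in fibroblasts, below the 88.8 and 84.5 CPM of the other cancer cells, and in thinned fibroblasts it was found in 13.6% and 32.4% of cells. *D030024E09Rik* had 0.547 and 0.733 CPM in myeloid cells. The median depth was 11164 and 11652 UMIs in myeloid cells and 52920 and 18795 in the other cancer cells, so shares of cells were compared only after thinning.

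High cells were 12.3% (interval 11.5 to 13.2) of the cancer cells in sGC Ctr and 8.23% (7.64 to 8.85) in sGC ∆PC, and the order depended on depth. Among cancer cells with at least 30000 UMIs, high cells were 692 of 5515 (12.5%, 11.7 to 13.5) in sGC Ctr and 543 of 3385 (16.0%, 14.8 to 17.3) in sGC ∆PC, the reverse order. Between 10000 and 30000 UMIs they were 55 of 544 (10.1%, 7.71 to 12.96) and 64 of 2728 (2.35%, 1.81 to 2.99). Below 10000 UMIs they were 7 of 47 (14.9%, 6.20 to 28.3) and 60 of 1991 (3.01%, 2.31 to 3.86). With the cancer cells of sGC ∆PC in 10 equal bins by depth, the share lay between 1.23% and 4.57% in the 6 shallowest bins and between 12.8% and 20.9% in the 4 deepest, while in sGC Ctr it lay between 9.002% and 14.8% throughout.

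**Figure D3:**
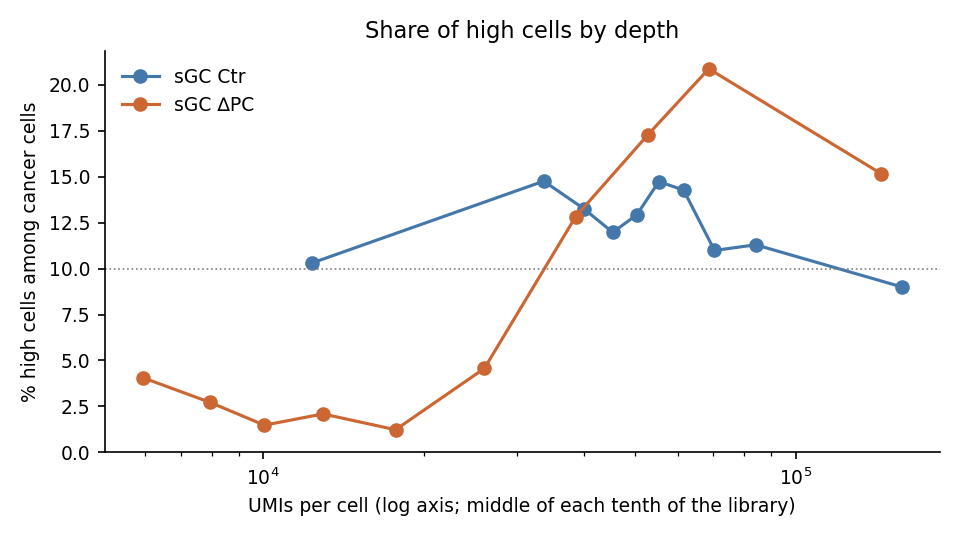
Share of high cells among cancer cells in percent (vertical axis) in 10 equal bins of each library by UMIs per cell (logarithmic horizontal axis); the dotted line is the pooled share of 10%. The sGC ∆PC line lies under 5% in the 6 shallowest bins and above the sGC Ctr line in the deepest ones, reaching 20.9%.

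High cells differed from the other cancer cells in several marks of RNA content. The summed level of *Rhox5*, *Krt8*, *Krt18* and *Hmga2*, which the choice of cancer cells required, had a median of 1705 CPM in high and 1741 CPM in other cells of sGC Ctr, and 1820 and 1694 CPM in sGC ∆PC. The median share of mitochondrial UMIs was 5.04% against 4.69% in sGC Ctr and 5.76% against 4.97% in sGC ∆PC. Ribosomal protein mRNAs took 34.5% of the UMIs of the median high cell against 38.2% in sGC Ctr, and 32.8% against 36.7% in sGC ∆PC. At 5000 UMIs a high cell showed 1812 genes against 1687 in sGC Ctr, and 1825 against 1674 in sGC ∆PC, so the transcripts of high cells were spread over more genes at equal depth.

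Across all genes the high cells were shifted upward. Of 13684 genes with at least 50 UMIs over the cancer cells of each library, 1856 (13.6%) were at least 1.5-fold higher in high cells of sGC Ctr and 349 (2.55%) at least 1.5-fold lower. In sGC ∆PC 1874 (13.7%) were higher and 518 (3.79%) lower. In both libraries alike, 1172 (8.56%) were higher and 142 (1.04%) lower. The first count was 464 with cells chosen on UMIs thinned to 5000, and the second 59 with at least 200 UMIs per gene. The median gene had a log2 ratio of 0.20 in each library, beside the lower share of ribosomal protein mRNA. These genes come from the cells that the score chose, and the share moved with the level of a gene: of the 3421 genes with the lowest levels 28.1% were higher and 8.01% lower in sGC Ctr, and of the 3421 with the highest levels 5.61% and 0.585%.

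Long noncoding RNAs that stay in the nucleus were the first group with high values, and they were not part of the score. *Malat1*, a nuclear speckle RNA, had 26266 CPM in high and 14539 CPM in other cells of sGC Ctr, and 26290 and 16235 CPM in sGC ∆PC. *Neat1*, the scaffold of paraspeckles, had 1040 against 567 CPM and 1344 against 793 CPM. The log2 ratios were 0.85 and 0.70 for *Malat1* and 0.87 and 0.76 for *Neat1* in sGC Ctr and sGC ∆PC. Of the 14 measured members, 8 in sGC Ctr and 7 in sGC ∆PC were at least 1.5-fold higher, 6 of them in both, where 8.56% of all genes were higher in both, and 2, *Meg3* and *Rian*, were at least 1.5-fold lower in sGC Ctr, beside 2.55% of all genes. The median ratio was 0.61 and 0.58.

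*Airn*, an antisense RNA that silences *Igf2r* on the paternal chromosome, had 45.4 against 25.8 CPM and 41.1 against 23.9 CPM, with log2 ratios of 0.81 (0.74 to 0.89) and 0.78 (0.70 to 0.87). *Snhg14*, the long transcript antisense to *Ube3a*, had 1.03 (0.77 to 1.29) and 1.25 (1.005 to 1.49), and *Firre* 0.80 and 0.92. *Gm26917* had 226 against 88.2 CPM and 250 against 96.9 CPM, with the largest ratios of the list at 1.36 and 1.37. *Xist*, the RNA of the inactive X chromosome, stood at 0.51 and 0.58, and *Pvt1*, beside *Myc*, at 0.43 and 0.47. *Meg3* went the other way in sGC Ctr, with 22 UMIs in high cells and a ratio of -2.45 (-3.13 to -1.85), and had -0.32 (-0.68 to 0.02) in sGC ∆PC. With cells chosen on thinned UMIs *Meg3* had -1.57 and -1.44, and over all alternatives its sGC ∆PC value ran from -1.48 to -0.05. Spliced noncoding RNAs that are exported had a median of -0.06 and -0.05. Of 9 measured, among them *Gas5* and *Snhg1*, none passed 1.5-fold in either library, where 13.6% and 13.7% of all genes were higher, a share near which 0 of 9 lies.

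Of the 10 genes most like the score from cell to cell, 4 were such noncoding RNAs and 6 protein coding genes. Among 6107 genes with at least 1000 UMIs over the thinned cells, *Malat1* had the highest Pearson correlation with the score (0.377 in sGC Ctr and 0.347 in sGC ∆PC, over 6106 and 8104 cells). *Neat1* followed with 0.248 and 0.278. The next were *Dst* and *Ahnak*, genes of very large proteins of the cytoskeleton and membrane, then *Gm26917*, *Prrc2c*, *Tcf4*, *Eif3a*, *Srrm2* and *Xist*, with 0.190 and 0.175 for *Xist*. The lowest correlations were those of ribosomal protein genes such as *Rps4x* (-0.217 and -0.216), of *Fau*, and of *Lgals1* (-0.193 and -0.282), the gene of galectin-1.

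Imprinted neighbours of *Kcnq1ot1* showed no common direction. *Cdkn1c*, the cell cycle inhibitor of the domain, had 1 and 3 UMIs in all high cells, and its ratios of -1.41 (-6.78 to 1.24) and -0.48 (-2.84 to 1.22) are not resolved at this depth. *Phlda2* had 43 and 49 UMIs and ratios of -0.40 (-0.89 to 0.05) and 0.24 (-0.23 to 0.68). *Kcnq1* itself had 9 and 13 UMIs. *Cd81*, the most abundant gene of the list, had 170 against 208 CPM and 161 against 204 CPM, with ratios of -0.29 and -0.34, and *Nap1l4* had 0.12 and 0.16. Of the 10 measured members none passed 1.5-fold in both libraries, near the 8.56% of all genes that were higher in both, and the median was -0.10 and 0.16. Of 18 measured imprinted genes elsewhere, such as *Gnas*, *Dcn* and *Igf2r*, only *Nnat* did so, also near that share, with ratios of 1.09 (0.44 to 1.69) and 0.66 (-0.08 to 1.34).

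Ankyrins, spectrins and their partners, the network to which *Ank3* belongs, were higher as a list. *Sptan1*, αII-spectrin, had 124 against 74.4 CPM in sGC Ctr and 125 against 76.1 CPM in sGC ∆PC, and *Sptbn1*, βII-spectrin, had 146 against 93.3 CPM and 140 against 86.7 CPM. Of 10 measured members besides *Ank3*, 4 were at least 1.5-fold higher in both libraries (*Ank1*, *Sptan1*, *Sptbn1* and *Epb41l2*), beside 8.56% of all genes, and none was lower. The median ratio was 0.57 and 0.64. For all measured genes with a span of 100 kb or more the median was 0.43 in each library, and 18.5% were higher in both. The list was not compared with genes of like span. *Add3*, an adducin, had 0.10 and 0.03. Of the other voltage-gated sodium channel genes only 3 could be measured, and *Scn10a*, *Scn11a*, *Scn2b* and *Scn4b* were among those at 0 in all cancer cells.

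Genes of chromatin regulators had ratios above 0 in every member, and some passed 1.5-fold. All 32 lay above 0 in both libraries, where the lower quartile of all genes was -0.06 in sGC Ctr and -0.08 in sGC ∆PC. Of the 32, 14 were at least 1.5-fold higher in both, beside 8.56% of all genes, and the median was 0.57 in sGC Ctr and 0.60 in sGC ∆PC. *Kmt2a*, a histone H3K4 methyltransferase, had 148 against 83.8 CPM and 140 against 79.5 CPM, or 0.82 in each library. *Atrx*, a remodeler of heterochromatin, had 192 against 114 CPM and 190 against 113 CPM, and *Ash1l*, another methyltransferase, 142 against 81.5 CPM and 136 against 80.1 CPM. *Chd4*, the remodeler of the NuRD complex and the most abundant of the list, had 306 against 197 CPM and 300 against 182 CPM. The others past 1.5-fold in both were *Kmt2c*, *Setd2*, *Setd5*, *Nsd1*, *Chd2*, *Chd6*, *Chd9*, *Ep300*, *Tet3* and *Huwe1*, with ratios between 0.59 and 0.89. Among cells with at least 30000 UMIs, chosen anew, the median was 0.58 and 0.56. This list too was not compared with genes of like span, where genes of 100 kb or more had a median of 0.43 in each library.

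Splicing and nuclear speckle genes followed with smaller values. Of 36, 34 had a ratio above 0 in both libraries, where the median of all genes was 0.20, and 6 were at least 1.5-fold higher in both, beside 8.56% of all genes, among them *Pnisr*, *Arglu1*, *Ddx17*, *Hnrnpu* and *Nktr*. The median was 0.43 and 0.42. *Hnrnpu*, a nuclear matrix and RNA binding protein, had 552 against 348 CPM and 546 against 343 CPM, and *Arglu1* 227 against 134 CPM and 227 against 151 CPM.

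mRNAs of translation and nuclear-coded mRNAs of the respiratory chain had ratios below 0 in most members, and none passed 1.5-fold in either library. For all genes the median was 0.20 and the lower quartile -0.06 in sGC Ctr and -0.08 in sGC ∆PC. None of the 81 measured ribosomal protein genes passed 1.5-fold, 69 had a ratio below 0 in both libraries, and the median was -0.17 and -0.19. The share of ribosomal protein mRNA summed over the cells was 343661 CPM in high and 379837 CPM in other cells of sGC Ctr, and 324357 and 362926 CPM in sGC ∆PC. For 20 translation factors, of which *Eef1a1* and *Tpt1* are among the most abundant, the median was -0.21 and -0.23, with 18 below 0 in both. All 26 nuclear genes of the respiratory chain, such as *Cox8a* and *Cox4i1*, were below 0 in both libraries, with a median of -0.20 and -0.21 and none past 1.5-fold. The 13 mRNAs of the mitochondrial genome were all above 0, with a median of 0.20 and 0.22, at the level of the median gene, and *mt-Nd6*, the only one encoded on the light strand, reached 1.07 and 0.90.

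**Figure D4:**
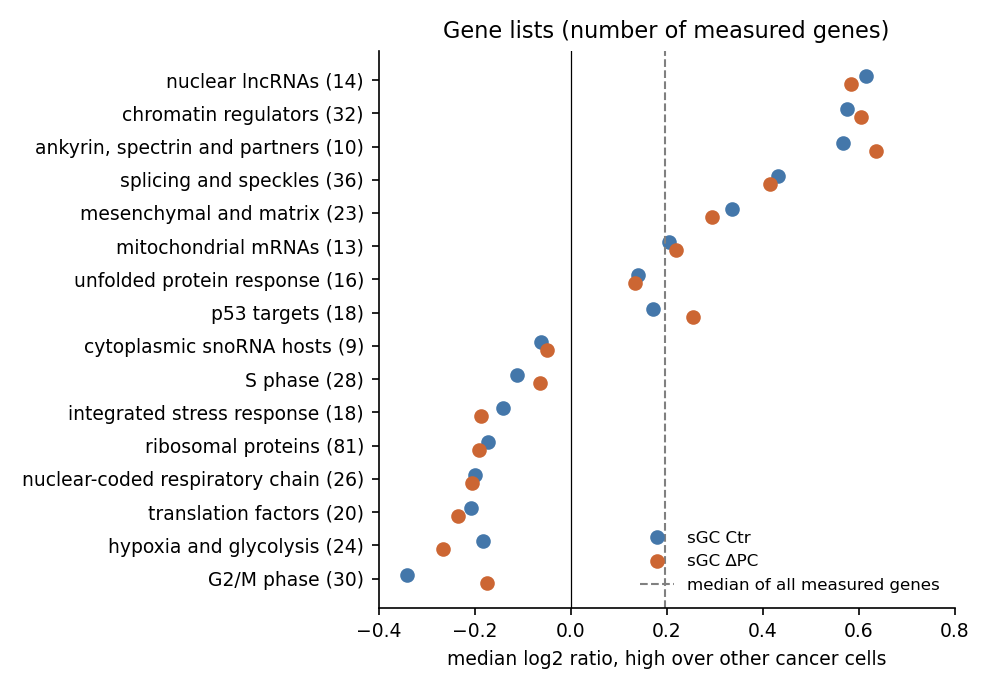
Median log2 ratio of high to other cancer cells (horizontal axis) for 16 gene lists in sGC Ctr and sGC ∆PC, with the number of measured genes in brackets; the dashed line is the median of all 13684 genes, 0.20. Nuclear noncoding RNAs, chromatin regulators and the ankyrin and spectrin genes lie near 0.6, and translation, respiration, hypoxia and G2/M lists lie below 0 in both libraries.

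*Malat1*, the chromatin regulators and the share of ribosomal protein mRNA changed along the whole score and not at its top alone. Among cancer cells with at least 30000 UMIs divided into 10 equal bins by score, the median *Malat1* level was 3971 CPM in sGC Ctr and 4740 CPM in sGC ∆PC in the lowest bin, 13439 and 14599 CPM in bin 5, and 25725 and 25070 CPM in the highest. The summed level of the 32 chromatin regulators went from 1138 and 1171 CPM in the lowest bin to 2629 and 2575 CPM in the highest. The share of ribosomal protein mRNA went from 41.1% and 38.7% to 34.3% and 32.5%. Median depth in the lowest and highest bins was 54100 and 53976 UMIs in sGC Ctr and 47864 and 61857 in sGC ∆PC, so in sGC Ctr the medians of depth at both ends were close.

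Within the high cells the same course went on. In the lowest of 4 equal bins by score (208 and 147 cells) the median *Malat1* level was 20786 CPM in sGC Ctr and 22349 CPM in sGC ∆PC, and in the highest bin (173 and 183 cells) it was 27071 and 27288 CPM. The chromatin regulators went from 2406 and 2220 CPM to 2818 and 2804 CPM, while the mitochondrial share was 5.05% and 5.83% in the lowest and 5.04% and 5.51% in the highest bin.

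**Figure D5:**
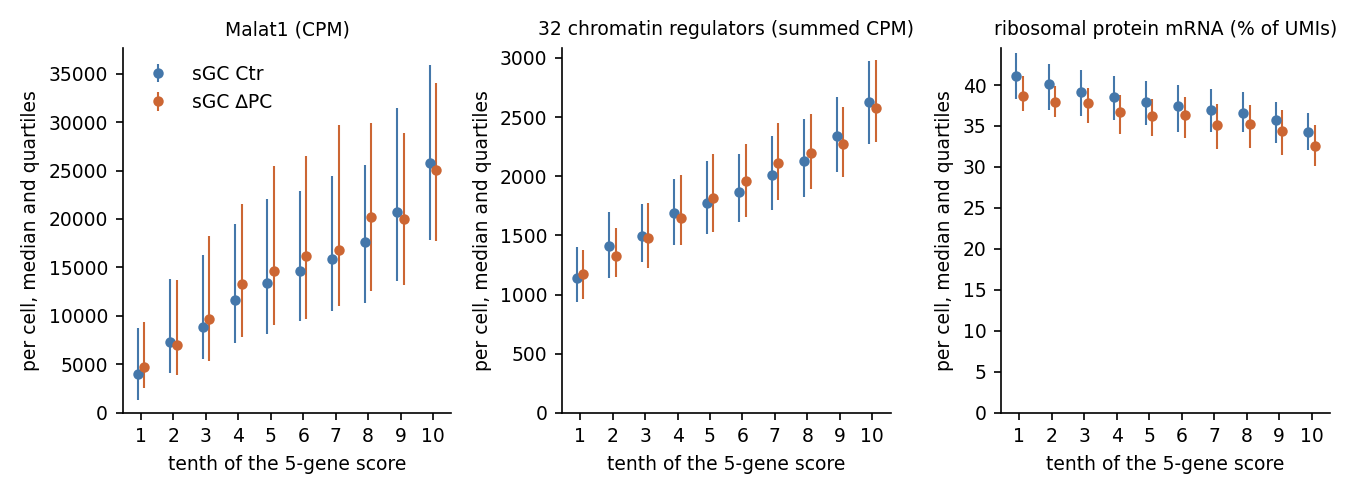
*Malat1*, the summed chromatin regulators and the share of ribosomal protein mRNA per cell (vertical axes, in CPM, CPM and percent of UMIs) in 10 equal bins of the 5-gene score (horizontal axes, 1 the lowest), for cancer cells with at least 30000 UMIs; points are medians over cells and bars the quartiles. *Malat1* goes from 3971 and 4740 CPM in the lowest bin to 25725 and 25070 CPM in the highest, and the quartiles of both libraries overlap in every bin.

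Genes with a long genomic span had larger ratios. For genes under 10 kb the median log2 ratio was 0.01 in sGC Ctr and -0.00 in sGC ∆PC (4007 genes), for 10 to 30 kb it was 0.14 and 0.14, for 30 to 100 kb 0.31 and 0.33, and for 100 kb or more 0.43 and 0.43 (1566 genes). At least 1.5-fold higher in both libraries were 8.14%, 5.37%, 8.62% and 18.5% of these genes, from the shortest to the longest, so the counts did not follow the medians in every bin. The same order held in protein coding genes alone, from -0.05 and -0.06 under 10 kb to 0.43 and 0.43 at 100 kb or more. Ratios also went with the longest run of A inside a transcript. Runs under 10 had a median of 0.16 and 0.15, runs of 10 to 14 had 0.33 and 0.35, and runs of 20 or more 0.33 and 0.34. Higher in both were 7.29%, 12.9% and 15.9% of these genes. *Kcnq1ot1* has a run of 41. Span and runs of A were not separated. By kind of gene, protein coding genes had a median of 0.19 and 0.19, antisense transcripts 0.35 and 0.31, and lincRNAs 0.36 and 0.34, with 6.82%, 22.9% and 20.4% of them higher in both. The 5 genes of the score, themselves long, are not in these figures, and the order is a description across genes. Whether intronic reads were counted is not given in the sources used here. *Kcnq1ot1* is annotated as a single exon and has no intron to count. The values of other long genes, and of the other score genes, could depend on it, which was not tested.

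Single genes with the largest ratios in both libraries were mostly rare transcripts. *Zfp966*, a zinc finger gene, had 5.59 against 1.71 CPM in sGC Ctr and 5.77 against 1.89 CPM in sGC ∆PC, with ratios of 1.71 and 1.61, and was found in 25.1% and 24.9% of the high cells. *Has1*, a hyaluronan synthase, had 3.98 against 1.22 CPM and 3.73 against 1.28 CPM, or 1.70 (1.43 to 1.96) and 1.55 (1.25 to 1.84). *Lrrc4*, a synaptic adhesion gene, had 1.87 and 1.58, and *Akap5*, an anchor of protein kinase A, 1.60 and 1.89. Also among the 12 were *Pcdhgb5*, *Cryba1* and the noncoding *Gm45518*, *Gm42658*, *Gm17024*, *Gm45406* and *Gm48342*, with ratios between 1.56 and 2.27. Over 15 alternatives *Pcdhgb5* ran from 1.24 to 2.26 in sGC Ctr and from 1.16 to 2.12 in sGC ∆PC. The last, *F830016B08Rik*, an interferon-inducible GTPase gene, had 2.19 and 2.26, but 76.9% and 65.0% of its UMIs in high cells came from 5 cells in each library, and its ratio turned below 0 under other choices of cells.

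Genes with the lowest ratios included matrix, stromal and interferon genes. *Hspb1*, a small heat shock protein, was the best measured, with 13.1 against 31.4 CPM in sGC Ctr and 8.14 against 27.0 CPM in sGC ∆PC, and ratios of -1.26 (-1.38 to -1.13) and -1.73 (-1.90 to -1.56). *Ndufa4l2*, a hypoxia-induced gene of the respiratory chain, had -1.47 and -1.78. Of its UMIs in the other cells, 5 cells held 44.1% in sGC Ctr and 10.3% in sGC ∆PC. It was found in 3.32% of high and 2.90% of other cells of sGC Ctr, and in 3.00% and 3.71% in sGC ∆PC. *Postn*, *Col12a1*, *Sfrp2*, *Crispld2*, *Fibin* and *Thy1*, genes of matrix and fibroblasts, had ratios between -2.76 and -1.26, and their UMIs came in part from few of the other cells. In sGC Ctr 5 of the 5352 other cells held 39.4% of the *Postn*, 39.7% of the *Col12a1*, 50.7% of the *Fibin* and 51.3% of the *Sfrp2* UMIs, and in sGC ∆PC 5 of 7437 held 14.2%, 23.9%, 19.8% and 22.0%. In sGC Ctr *Postn* was found in 6.90% of high and 6.91% of other cells. *Gpm6b* had 2 and 7 UMIs in high cells, with ratios of -3.34 (-6.40 to -1.46) and -2.47 (-3.80 to -1.41), and *Mgll*, monoacylglycerol lipase, had 6 and 8 UMIs. Over 15 alternatives *Ndufa4l2* ran from -2.48 to -0.66 in sGC Ctr and from -2.13 to -0.81 in sGC ∆PC. *Crispld2* ran from -2.44 to -1.01 and from -4.43 to -0.98.

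*Ifit1* and *Ifit3*, interferon-induced genes, had 19 and 28 and 16 and 13 UMIs in high cells, with ratios of -2.13 and -2.06 for *Ifit1* and -1.56 and -2.10 for *Ifit3*. Both changed sign in at least 1 library when cells were chosen in another way. Of the 21 interferon genes, 3 were lower in both libraries (*Oas1a* was the last), beside 1.04% of all genes, and *Gbp2* was higher, with 0.64 and 0.81, beside 8.56% of all genes, and the median was -0.05 and -0.12.

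Cell cycle and hypoxia lists were lower in part. *Ube2c*, a ubiquitin conjugating enzyme of mitosis, had 88.8 against 160 CPM in sGC Ctr and 108 against 177 CPM in sGC ∆PC, and *Cdk1*, the mitotic kinase, 52.6 against 81.4 CPM and 61.1 against 93.1 CPM. Of 30 genes of G2 and M phase, 8 and 5 were at least 1.5-fold lower, 5 of them in both libraries (*Cdk1*, *Cdc20*, *Ube2c*, *Birc5* and *Aurka*), where 1.04% of all genes were lower in both. The median was -0.34 and -0.17. Over 15 alternatives it kept its sign but ran from -0.73 to -0.06 in sGC Ctr and from -0.55 to -0.05 in sGC ∆PC. Of 28 S phase genes, such as *Pcna* and *Mcm3*, none passed in both, with a median of -0.11 and -0.06. Of 24 hypoxia and glycolysis genes *Adm*, adrenomedullin, was lower in both, with 79.0 against 142 CPM and 79.1 against 150 CPM, and the list had a median of -0.18 and -0.27.

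Stress, signalling and matrix lists had medians between -0.19 and 0.34. p53 targets had a median of 0.17 and 0.25, with *Trp53inp1* (0.65 and 0.89) and *Eda2r* (0.68 and 0.79) past 1.5-fold in both, a share near the 8.56% of all genes. Immediate early genes had 0.17 and 0.07, with *Fosb* at 0.90 and 0.64. The integrated stress response had -0.14 and -0.19, the unfolded protein response 0.14 and 0.13, and heat shock genes 0.03 and 0.08. Mesenchymal and matrix genes had 0.34 and 0.29, where *Zeb1*, a repressor of epithelial genes, had 69.9 against 42.1 CPM and 68.9 against 42.0 CPM, or 0.73 and 0.72, and *Tnc* was lower with -0.68 and -0.99. Of 13 measured LLC and oncofetal genes *Lin28b*, an inhibitor of let-7 processing, was higher in both with 0.94 and 1.26, again near that share, and the median was -0.12 and -0.02.

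Scores for other cancer cell states were set against the high cells. Of the high cells 6.101% in sGC Ctr and 5.70% in sGC ∆PC were also among the 10% of cancer cells highest for hypoxia genes, which held 10.4% and 9.70% of all cancer cells. For the *Igfbp6*, *Clu* and *Scara5* sum the shares were 6.76% and 7.20% (10.99% and 9.25% of all cancer cells). For G2 and M genes they were 8.75% and 12.6% (11.1% and 9.14%), for S phase genes 8.75% and 11.2% (11.1% and 9.14%), for mesenchymal and matrix genes 7.56% and 7.95% (9.71% and 10.2%), and for *Prg4*, *Aspn* and *Ptn* 15.0% and 7.65% (13.5% and 7.38%). The G2 and M share of sGC ∆PC (10.2 to 15.4) lay above that of all its cancer cells, while the median summed level of the list was 359 CPM in its high and 997 CPM in its other cells. The nuclear noncoding RNA list gave the largest share of these lists, 25.6% (22.5 to 28.9) and 24.4% (21.2 to 27.9), against 9.88% and 10.1% of all cancer cells. That list summed to 28538 and 28955 CPM over the high cells, most of it *Malat1*, so its share is largely that of 1 gene. As shares of those top sets themselves, high cells made up 32.01% and 19.9% of the nuclear RNA set, and 7.24% and 4.83% of the hypoxia set.

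RNA of other cell types was present in both high and other cancer cells, and in sGC ∆PC, where the other cells were shallower, macrophage RNA was lower in the high cells. The 14 macrophage markers summed to 241 CPM in high and 207 CPM in other cells of sGC Ctr, and to 285 and 467 CPM in sGC ∆PC, and *Lyz2* was the most abundant. These sums hold *Tyrobp*, *Fcer1g* and *Ctss*, by which the cancer cells were chosen, at 36.5 and 30.7 CPM and at 40.5 and 62.3 CPM. The 11 measured macrophage markers counted below leave them out. The 10 fibroblast markers summed to 1595 and 1540 CPM and to 1659 and 1751 CPM, mostly *Col3a1*, and *Col1a1* had 11.6 against 28.1 CPM and 30.3 against 50.4 CPM. The 10 endothelial markers summed to 36.9 and 41.8 CPM and to 35.6 and 46.8 CPM, mostly *Egfl7*. The 10 pericyte markers summed to 5.57 and 7.07 CPM and to 8.19 and 10.2 CPM, mostly *Pdgfrb*. T and NK markers (1.24 against 0.997 CPM and 1.13 against 3.65 CPM, *Trbc2* the most abundant) and granulocyte markers (27.6 against 23.4 and 37.4 against 47.9, *S100a9*) were low too. So were erythroid markers (11.7 against 12.4 and 0.752 against 0.760, *Hbb-bs*) and neuronal and glial markers (19.2 against 18.2 and 21.3 against 18.5, *Tubb3*). Of the measured markers, in sGC Ctr and sGC ∆PC, 0 and 3 of 11 for macrophages, 5 and 5 of 10 for fibroblasts, 1 and 7 of 9 for endothelial cells and 6 and 3 of 8 for pericytes were at least 1.5-fold lower in high cells, beside 2.55% and 3.79% of all genes. For T and NK cells 0 and 4 of 4 measured markers were at least 1.5-fold lower. In sGC Ctr 2 of 9 endothelial markers and 1 of 4 T and NK markers were at least 1.5-fold higher, beside 13.6% of all genes, and no marker of these lists was at 0 in all cancer cells. With the sGC Ctr value first, the median log2 ratio was 0.22 and -0.47 for macrophage, -0.50 and -0.59 for fibroblast, -0.01 and -1.20 for endothelial, -1.02 and -0.41 for pericyte, -0.01 and -1.65 for T and NK cell, 0.26 and -0.40 for granulocyte, and 0.44 and 0.41 for neuronal and glial markers. Over 15 alternatives the sGC ∆PC median ran from -0.88 to -0.10 for fibroblast and from -2.01 to -0.65 for endothelial markers. The part of RNA of other cell types in the ratios of the high cells was not tested.

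Between the conditions the high cells were close. Of 12200 genes with at least 50 UMIs over the high cells of both libraries together, which a gene can reach through 1 library alone, 329 (2.7%) were at least 1.5-fold higher in sGC ∆PC and 106 (0.869%) lower, and the median log2 ratio, taken with sGC ∆PC above sGC Ctr, was 0.02. With at least 200 UMIs per gene the counts were 97 and 12. For the same 12200 genes in the other cancer cells 419 (3.43%) were higher and 16 (0.131%) lower, with a median of -0.00. The 5 score genes chose the cells, and their ratios between conditions are a description. *Scn9a* had -0.32 in high and -0.24 in other cells, *C230038L03Rik* had 0.22 and 0.17, and *Kcnq1ot1* 0.07 and -0.03, while *Ank3* and *D030024E09Rik* lay within 0.05 of 0 in the high cells.

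Several of the largest ratios between conditions came with many UMIs in 1 cell. *Rarres2* (2.85), *Col1a2* (1.93), *Fbln2* (1.81) and *Col1a1* (1.38), all expressed by fibroblasts, had 211, 1052, 187 and 1129 UMIs in the high cells of sGC ∆PC. A single cell held 161, 635, 124 and 401 of these, in the same order. Over 14 alternatives the ratio ran from 0.49 to 4.01 for *Rarres2*, from 0.28 to 3.39 for *Col1a2* and from 0.09 to 3.22 for *Fbln2*, so the 1.5-fold difference was lost in some. *Gm26885* (1.80), *Fry* (1.43), *Saa3* (1.32), *C3* (1.80), *Iigp1* (1.478) and *Nos2* (1.47) had between 47.5% and 78.5% of their sGC ∆PC UMIs in 5 cells. In sGC Ctr the 5 richest cells held as large a part of *Nos2* (56.1%), *Iigp1* (53.7%) and *Saa3* (68.7%). They held a smaller part than in sGC ∆PC of *Gm26885* (55.4% against 78.5%), *Fry* (48.6% against 74.1%) and *C3* (23.9% against 53.9%). Over the same alternatives the ratio of *C3* ran from 0.55 to 2.89 and that of *Iigp1* from 0.66 to 1.86.

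Among the genes lower in sGC ∆PC, some were found in many cells. *Ptn*, pleiotrophin, had 132 CPM in the high cells of sGC Ctr and 84.8 CPM in those of sGC ∆PC, a ratio of -0.63 (-0.70 to -0.57), against -0.48 in the other cancer cells, and was found in 64.7% and 58.8% of the high cells. *Ogn*, osteoglycin, had 21.0 and 11.8 CPM, or -0.83 (-0.998 to -0.66), against -0.64 in the others. *Limch1* had -0.72 against -0.37, *Islr* -0.83 against -0.33, and *Hspb1* -0.69 against -0.22. *Sept1*, *Armc7* and *Phyhd1* had -0.91, -0.63 and -0.63 in high cells and between -0.16 and -0.02 in the others. *Sparcl1* had -0.68 against 0.71, with 49.2% of its 130 UMIs in the high cells of sGC Ctr from 5 cells. *Hbb-bs*, a globin gene of erythrocytes, had 218 and 8 UMIs, a ratio of -4.59 against -4.31 in the others, and 137 of the 218 came from a single cell.

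The lists are given with the ratio of sGC ∆PC to sGC Ctr in high and in other cancer cells side by side; differences between the pairs were not tested. Mitochondrial mRNAs had a median ratio of 0.25 in high and 0.22 in other cells, immediate early genes 0.23 and 0.23, and S phase genes 0.14 and 0.08. G2 and M genes had 0.28 and 0.13, with none of 30 past 1.5-fold, and interferon genes 0.22 and 0.41. Macrophage markers had 0.18 in high and 0.97 in other cells, granulocyte markers 0.44 and 1.00, endothelial markers -0.05 and 0.36, and *Prg4*, *Aspn* and *Ptn* -0.39 and 0.09. Fibroblast markers had 0.22 and 0.28, with 4 of 10 at least 1.5-fold higher in the high cells beside 2.7% of all genes. Among these 4, a single high cell of sGC ∆PC held 401 of the 1129 *Col1a1* UMIs. The richest cell held 43 of 110 for *Postn* and 6 of 36 for *Thy1*, so the count rests in part on few cells. Erythroid markers summed to 11.7 CPM in the high cells of sGC Ctr and 0.752 CPM in those of sGC ∆PC, and pass the minimum of UMIs through sGC Ctr alone, so no count is given for them. The nuclear noncoding RNAs had 0.21 and 0.15, chromatin regulators -0.03 and -0.04, and splicing genes 0.02 and 0.05.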

How the data were processed

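Single-cell 3' RNA was measured in 1 library per condition. The authors aligned reads with Cell Ranger 6.1.1 to mm10 and deposited UMI counts per gene and barcode; whether intronic reads were counted is not given in the sources used here. The 487859656 and 436352742 UMIs of sGC Ctr and sGC ∆PC (15007 and 25631 barcodes) were used as raw counts in Python 3.11.15 with numpy 2.4.6, scipy 1.17.1 and pandas 2.3.3. UMIs were summed over the cells of a group and scaled to CPM, and intervals are exact (Poisson, Clopper-Pearson and conditional, 95%). Of 13684 genes compared, 13679 had a span in GENCODE, taken from an earlier release than that of the authors' reference. The group, the gene lists and the tests were chosen with earlier results of these data known. Named are the score genes, the 12 highest and 12 lowest genes by the smaller ratio of both libraries (at least 100 UMIs in each), the 10 highest and 10 lowest between conditions (at least 200 UMIs), the 4 most abundant members of a list and those past 1.5-fold in both libraries, the 10 genes most correlated with the score, and others picked after their values were seen. Steps were tested on simulated data. With 1 library per condition no p-value is given. Some genes that the rule names are not reported here.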

Additional observations from a re-analysis of the deposited data

Results flagged for a closer look

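Among the named genes and list members with a ratio past 1.5-fold in at least 1 library, 6 had high cells above the other cancer cells in one library and below them in the other, with counting intervals on opposite sides of 0. With the sGC Ctr value first, the log2 ratio of high to other cells was 0.24 and -0.82 for *Lyz2*, 0.18 and -1.11 for *Cd74*, 0.68 and -2.79 for *Cldn5*, 1.02 and -1.20 for *Kdr*, 0.68 and -0.71 for *Sparcl1*, and -0.31 and 1.01 for *Fry*. *Sept1* (0.28 and -0.47) and *Limch1* (0.19 and -0.17) did so with smaller ratios. In the high cells of sGC Ctr and sGC ∆PC, 5 cells held 48.6% and 74.1% of the *Fry* UMIs and 49.2% and 37.5% of the *Sparcl1* UMIs. The intervals cover counting error alone and leave out such differences between cells. *Lyz2* and *Cd74* are macrophage markers and *Cldn5* and *Kdr* endothelial ones. *Cldn5* had 28 and 7 UMIs and *Kdr* 25 and 11 UMIs in the high cells. The other cancer cells of sGC ∆PC, with a median of 18795 UMIs, were shallower than those of sGC Ctr, with 52920. The difference between the libraries was not tested, since each condition has a single library.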

How the results depend on the processing

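In sGC Ctr and sGC ∆PC the share of high cells was 10.01% and 10.01% with the top 10% taken within each library, 5.85% and 4.37% with the top 5%, 10.96% and 9.063% from 10000 UMIs, 14.01% and 6.367% under 5% mitochondrial UMIs, and 8.758% and 12.02% from 30000 UMIs, an alternative chosen after seeing the data. Genes at least 1.5-fold higher in both libraries numbered 464 with cells chosen on UMIs thinned to 5000 and 771 without mitochondrial and ribosomal genes in the total; genes lower in both numbered 232 with the top 5%, 227 without *Kcnq1ot1* in the score and 59 from 200 UMIs per gene. Between conditions, 168 genes were lower under 5% mitochondrial UMIs and 186 by the mean over cells, and from 200 UMIs 97 were higher and 12 lower. Reversed were *F830016B08Rik* (sGC ∆PC -0.083 with thinned choice and -0.11 with the top 5%, sGC Ctr -0.40 under 5% mitochondrial UMIs), *Ifit3* (sGC Ctr 0.28 with thinned choice, sGC ∆PC 0.0535 without *Kcnq1ot1*) and *Ifit1* (sGC ∆PC 0.76 without *Kcnq1ot1*). The causes were not tested. The study's filter by median absolute deviation changed none of these counts, and barcodes found in both libraries, left out after seeing the data, moved none of them by over 1.5 times. Over 15 alternatives the list medians kept their sign for nuclear noncoding RNAs (0.47 to 0.94), chromatin regulators (0.45 to 0.76), splicing (0.31 to 0.55), translation factors (-0.32 to -0.16) and the respiratory chain (-0.30 to -0.14), but not for S phase (-0.27 to 0.11), interferon genes (-0.33 to 0.04), endothelial markers in sGC Ctr (-0.41 to 0.15) and hypoxia in sGC ∆PC (-0.35 to 0.00). No paired analysis was possible because each condition has a single library. Intervals cover counting error only, and variation between tumors cannot be seen.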
